A study of Homo sapiens with 12 samples.

Results

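The genes described here are 9 members of the interleukin 6 (IL6) signalling pathway, taken from the count table by gene symbol: the receptor chains *IL6ST* and *IL6R*, the kinases *JAK1* and *JAK2*, the transcription factor *STAT3*, and the feedback genes *SOCS1*, *SOCS2*, *SOCS3* and *CISH*. Each matched 1 of the 63152 gene identifiers, and 8 of the 9 were among the 13180 genes with enough counts to be tested, *SOCS1* being the exception. The cells were OPM2, an established human multiple myeloma line, and RNA was collected after 2 h with 18DS (250 nM), JQ1 (250 nM), BKM120 (1 µM) or the vehicle DMSO, with 3 libraries, given as biological triplicates, in each of the 4 groups. 18DS is a chimeric compound designed to inhibit both PI3K and BET proteins, JQ1 blocks the bromodomains of BET proteins, and BKM120 inhibits the lipid kinase PI3K. All groups are 1 line in culture, no group received JQ1 and BKM120 together, and the 3 comparisons with DMSO share the same DMSO libraries. The assay reads the 3′ ends of messenger RNA, and levels are given as CPM, counts scaled to library size.

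IL6 binds the receptor chain encoded by *IL6R*, and the pair engages the shared signalling chain gp130, encoded by *IL6ST*. JAK kinases bound to gp130 phosphorylate STAT3, which moves to the nucleus and activates target genes, among them SOCS genes whose products bind receptors or JAKs and damp the signal. IL6 from bone marrow stroma is a known growth and survival factor of myeloma cells.

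Library totals spanned 5882214 to 7292895 counts for 18DS, 5501895 to 7692013 for JQ1, 5563788 to 6883854 for BKM120 and 5940610 to 6594995 for DMSO. Of 12 plasma cell and myeloma markers 11 were tested, and their summed level was 3122 to 3190 CPM for 18DS, 3156 to 3216 for JQ1, 3593 to 3803 for BKM120 and 3706 to 3844 for DMSO, so it was lower in every 18DS and JQ1 library than in every BKM120 and DMSO library. The summed T and NK cell, myeloid, and epithelial and fibroblast markers reached at most 1.80, 5.76 and 3.56 CPM in any library. On the third principal component 18DS replicate 2 stood apart from 18DS replicates 1 and 3 (scores -26.7, 13.7 and 9.33), so calls for 18DS against DMSO are also given without it. Mitochondrial transcripts took 6.95% to 7.60% of counts with 18DS, 6.61% to 7.04% with JQ1, 6.99% to 7.65% with BKM120 and 6.57% to 6.97% with DMSO, and their part in the results was not tested. *MYC*, which BET inhibitors lower in myeloma cells, fell by 3.51 on the log2 scale with 18DS and by 3.53 with JQ1, and it rose by 0.81 with BKM120 (adjusted p = 4.21e-16, 6.77e-16 and 5.01e-05 in edgeR's quasi-likelihood test). *KLF2*, a target of FOXO factors in lymphocytes, rose by 1.64 with 18DS and by 2.80 with BKM120 (edgeR adjusted p = 1.16e-05 and 2.64e-07).

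The bases before the start of *CISH* and *IL6ST* are shown because *CISH* was the member whose window holds STAT elements, and *IL6ST* the well-counted member with the largest change. Each is the 250 bases before the RefSeq gene start in build GRCh38.p14, 5′ to 3′ on the gene's own strand, at chr3:50611775-50612024 (minus strand) for *CISH* and chr5:55994964-55995213 (minus strand) for *IL6ST*. Capitals mark each match to TTCNNNGAA, the palindrome that STAT proteins bind, which reads the same on both strands.
CISH: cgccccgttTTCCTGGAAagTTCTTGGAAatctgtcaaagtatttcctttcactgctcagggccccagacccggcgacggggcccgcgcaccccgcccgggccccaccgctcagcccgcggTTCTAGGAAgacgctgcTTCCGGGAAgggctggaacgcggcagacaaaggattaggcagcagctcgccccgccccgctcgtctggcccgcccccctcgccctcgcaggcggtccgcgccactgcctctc
IL6ST: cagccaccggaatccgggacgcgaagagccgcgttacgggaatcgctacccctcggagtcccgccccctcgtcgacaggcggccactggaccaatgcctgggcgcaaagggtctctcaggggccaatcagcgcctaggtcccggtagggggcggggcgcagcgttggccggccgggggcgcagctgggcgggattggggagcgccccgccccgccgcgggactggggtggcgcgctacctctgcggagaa
In *CISH* the 4 matches did not overlap, and their first bases lie at -241, -230, -129 and -112 from the start. In windows that also include the first 50 bases of the gene, TTCNNNGAA occurred in 2689 of 35116 human RefSeq windows (7.66%), and 4 or more matches occurred in 7 windows (0.0199%). RefSeq windows were found for 8 members, in 14 windows, and *CISH* was the 1 member with a match, in 1 window. Among the other pathway genes with windows, 7 of 66 had a match, in 8 of their 93 windows. A window of *BCL6* also held 4 matches that did not overlap, so such a cluster was not particular to *CISH*. GTAAACA, a FOXO motif searched on either strand and chosen after the values were seen, was in none of the members' windows and in 3.42% of all windows. Such matches describe the letters of a window and not the binding of a factor.

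The receptor chains changed in different groups: *IL6ST* rose with BKM120, and *IL6R* fell with 18DS and with JQ1. *IL6ST* (ENSG00000134352), the gp130 gene, stood at 53.4, 48.7 and 58.0 CPM in the BKM120 libraries, against 27.4, 28.1 and 25.9 CPM in the DMSO libraries. Every BKM120 library was above every DMSO library. The rise was 1.96-fold, a log2 fold change of 0.97 ± 0.108 (SE; edgeR adjusted p = 8.97e-08), and it held in all 10 alternative settings and in all 12 fits that left out 1 library (0.91 to 1.03). The 18DS libraries, at 26.3, 25.5 and 28.8 CPM, overlapped those of DMSO. The JQ1 libraries, at 23.1, 22.5 and 24.8 CPM, lay below every DMSO library, but the difference did not pass the test. Relative to DMSO, the log2 fold change was -0.01 ± 0.114 with 18DS and -0.21 ± 0.116 with JQ1 (SE; edgeR adjusted p = 0.949 and 0.365), with 95% confidence intervals of -0.247 to 0.217 and -0.442 to 0.0295. The group means therefore ran from BKM120 (53.4 ± 4.66 CPM) through DMSO (27.1 ± 1.12) and 18DS (26.9 ± 1.71) to JQ1 (23.5 ± 1.18; SD, n = 3 each), and DMSO and 18DS were the neighbours whose libraries overlapped. The exons of *IL6ST* overlap those of *AC008914.1* on the opposite strand, which had 182 counts in the 12 libraries against 2473 for *IL6ST* and a log2 fold change of 1.15 with BKM120. Whether the authors counted by strand is not given in the sources used here, so reads of such pairs could not be told apart. In bulk RNA, fewer cells of a kind and less RNA per cell cannot be told apart.

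*IL6R* (ENSG00000160712), the ligand-binding chain, stood at 176.7, 148.8 and 160.9 CPM in 18DS, at 154.5, 150.5 and 154.9 CPM in JQ1, at 186.8, 198.8 and 184.9 CPM in BKM120, and at 217.1, 205.0 and 197.2 CPM in DMSO. All 18DS and JQ1 libraries lay below all DMSO libraries and below all BKM120 libraries, while BKM120 and DMSO overlapped. It fell by 0.35 ± 0.0775 on the log2 scale with 18DS, 1.27-fold, and by 0.43 ± 0.0778 with JQ1, 1.35-fold (SE; edgeR adjusted p = 0.00119 and 0.000247). Without 18DS replicate 2, its lowest library, the change with 18DS was -0.29 (edgeR adjusted p = 0.0099), and neither call was lost in any of the 10 alternatives or the 12 fits without 1 library. With BKM120 the log2 fold change was -0.12 ± 0.0772 (SE; edgeR adjusted p = 0.374). The summed plasma cell and myeloma markers separated the same groups, at 3122 to 3216 CPM in the 18DS and JQ1 libraries and 3593 to 3844 CPM in the BKM120 and DMSO libraries, and their part in this result was not tested.

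**Figure D1:**
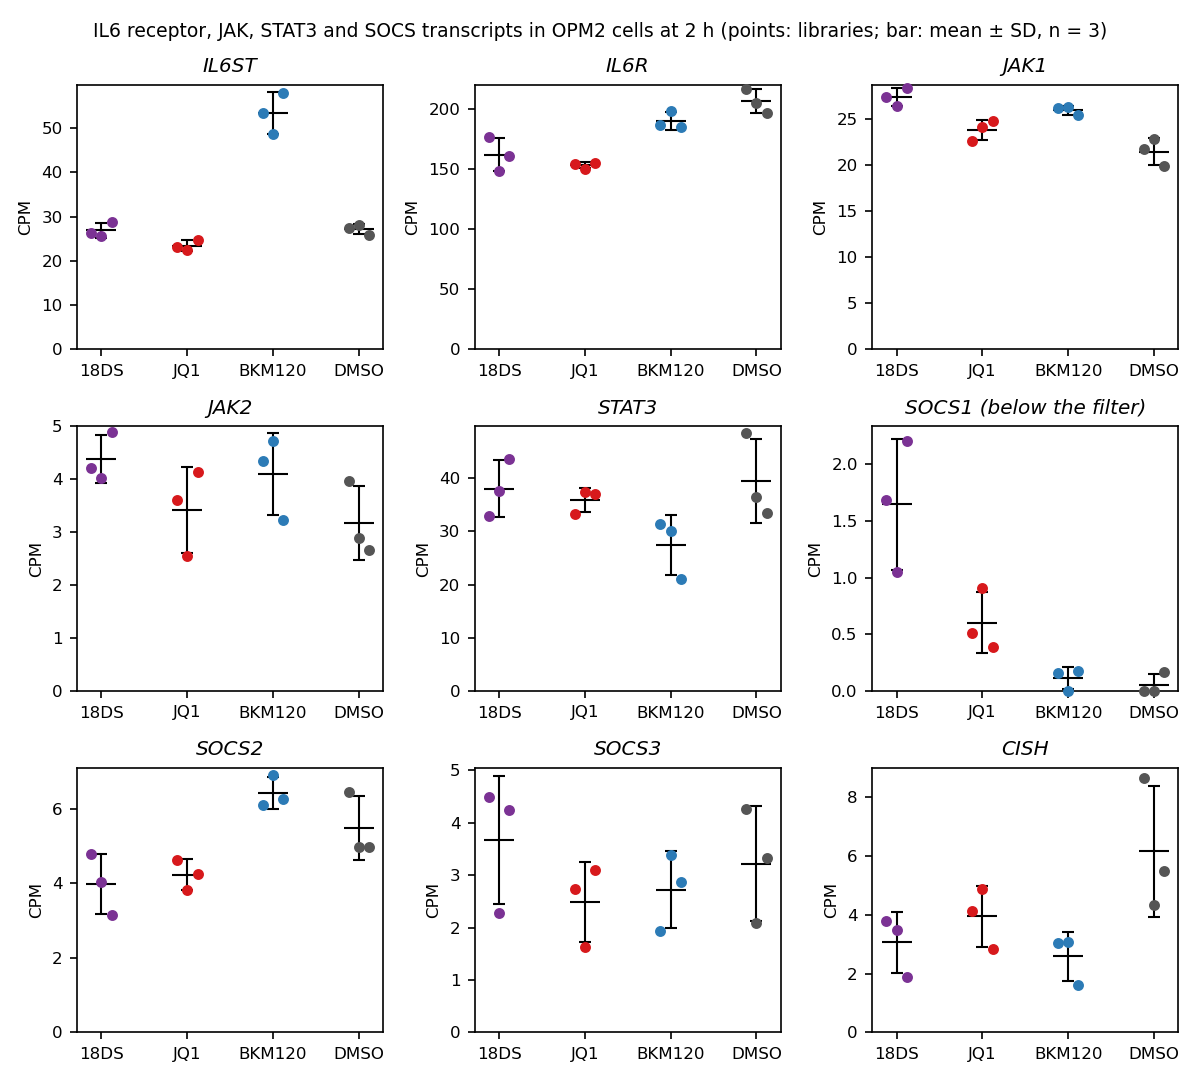
Levels of the 9 genes in CPM (vertical axes, each from 0) in the 18DS, JQ1, BKM120 and DMSO libraries, where points are libraries and bars the mean ± SD of 3. *IL6ST* is at 48.7 to 58.0 CPM in BKM120 and at most 28.8 CPM elsewhere, and *SOCS1* is at most 0.18 CPM in BKM120 and DMSO and at least 1.05 CPM in 18DS.

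Of the kinases, *JAK1* rose slightly with 18DS and *JAK2* passed no test. *JAK1* (ENSG00000162434), a kinase bound to gp130 and to interferon receptors, stood at 27.4, 26.4 and 28.3 CPM in 18DS and at 22.6, 24.1 and 24.8 CPM in JQ1. It stood at 26.2, 26.3 and 25.4 CPM in BKM120 and at 21.7, 22.8 and 19.9 CPM in DMSO. Every 18DS library was above every library of the other groups, every BKM120 library was above every JQ1 and DMSO library, and JQ1 and DMSO overlapped. The rise with 18DS was 1.27-fold, a log2 fold change of 0.35 ± 0.118 (SE; edgeR adjusted p = 0.0313). It was 0.38 without 18DS replicate 2 (edgeR adjusted p = 0.0414), but the call was lost without 18DS replicate 3 (0.33, adjusted p = 0.0903), DMSO replicate 1 (0.37, adjusted p = 0.0612) or DMSO replicate 3 (0.30, adjusted p = 0.12). DESeq2's Wald test gave 0.35 with adjusted p = 0.0631. The exons of *JAK1* overlap those of *RAVER2* on the opposite strand, which had 1209 counts against 1877 and a log2 fold change of -0.10 with 18DS. With JQ1 the *JAK1* log2 fold change was 0.15 ± 0.12 and with BKM120 0.27 ± 0.119 (SE; edgeR adjusted p = 0.569 and 0.152).

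*JAK2* (ENSG00000096968), the kinase of many single-chain cytokine receptors, averaged 4.37 ± 0.449 CPM in 18DS, 3.42 ± 0.811 in JQ1, 4.09 ± 0.772 in BKM120 and 3.17 ± 0.697 in DMSO (SD, n = 3 each). The 18DS libraries lay at 4.21, 4.03 and 4.88 CPM, just above the DMSO libraries at 3.96, 2.89 and 2.66 CPM, and the other groups overlapped DMSO. Its log2 fold changes relative to DMSO were 0.45 ± 0.288 with 18DS, 0.12 ± 0.299 with JQ1 and 0.37 ± 0.292 with BKM120 (SE; edgeR adjusted p = 0.278, 0.88 and 0.485), so at this depth changes of this size could not be told from the spread.

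*STAT3* (ENSG00000168610), the transcription factor that gp130 activates, fell with BKM120. It stood at 31.3, 30.2 and 21.0 CPM in BKM120, against 48.5, 36.4 and 33.5 CPM in DMSO. The groups did not overlap, but replicate 3 was the low library of BKM120 and replicate 1 the high library of DMSO. The fall was 1.43-fold, a log2 fold change of -0.52 ± 0.147 (SE; edgeR adjusted p = 0.0286), and it rested on those libraries. It was -0.37 without BKM120 replicate 3 and -0.34 without DMSO replicate 1 (edgeR adjusted p = 0.159 and 0.2). *STAT3* was at 32.9, 37.6 and 43.6 CPM in 18DS and at 33.3, 37.3 and 37.1 CPM in JQ1. Both groups overlapped DMSO, with log2 fold changes of -0.06 ± 0.142 and -0.14 ± 0.143 (SE; edgeR adjusted p = 0.81 and 0.677).

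Among the feedback genes, *CISH* fell with 18DS and with BKM120, *SOCS1* was counted almost only in 18DS and JQ1, and *SOCS2* and *SOCS3* passed no test. *CISH* (ENSG00000114737), a SOCS family inhibitor best known as a STAT5 target, stood at 3.79, 3.50 and 1.89 CPM in 18DS, at 4.12, 4.90 and 2.84 CPM in JQ1, at 3.05, 3.09 and 1.61 CPM in BKM120 and at 8.66, 4.33 and 5.48 CPM in DMSO. The 18DS and BKM120 libraries lay below all DMSO libraries, JQ1 overlapped DMSO, and DMSO replicate 1 was well above the other DMSO libraries. *CISH* fell by 1.01 ± 0.311 on the log2 scale with 18DS and by 1.24 ± 0.321 with BKM120 (SE; edgeR adjusted p = 0.0177 and 0.0124). The call with 18DS held without 18DS replicate 2 (-1.10, edgeR adjusted p = 0.0232) and was lost without 18DS replicate 3 (-0.76, adjusted p = 0.118) or DMSO replicate 1 (-0.66, adjusted p = 0.214). The call with BKM120 was lost without BKM120 replicate 3 (-1.01, edgeR adjusted p = 0.0965) or DMSO replicate 1 (-0.90, adjusted p = 0.164). DESeq2 gave *CISH* no adjusted p with BKM120 and so did not call it, and a stricter count filter left the gene out. With JQ1 the log2 fold change was -0.68 ± 0.301 (SE; edgeR adjusted p = 0.214). The exons of *CISH* overlap those of *MAPKAPK3* on the opposite strand, which had 1674 counts in the 12 libraries against 300 for *CISH*, and whose log2 fold changes were 0.00 with 18DS, -0.28 with JQ1 and -0.15 with BKM120.

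*SOCS1* (ENSG00000185338), a direct inhibitor of JAK kinases, had too few counts for the test across genes. It had 12, 6 and 14 counts in the 18DS libraries, 3, 5 and 3 in JQ1, 1, 0 and 1 in BKM120, and 0, 0 and 1 in DMSO. Every 18DS library was above every JQ1 library, and every JQ1 library above every BKM120 and DMSO library. Scaled by depth, the summed counts of 32 in 18DS and 1 in DMSO gave a ratio of 31.8 (95% counting interval 5.31 to 1290), and 11 in JQ1 against 1 in DMSO gave 11 (1.6 to 473). The 2 counts in BKM120 against 1 in DMSO gave 2.05 (0.107 to 121). These intervals cover counting error only. Exact two-sided permutation tests over the libraries gave p = 0.1 for 18DS and for JQ1 against DMSO, the smallest that 3 against 3 allows, and p = 0.7 for BKM120. In an edgeR fit with no count filter, over 30582 genes, *SOCS1* differed from DMSO with 18DS (adjusted p = 0.000226). It did not pass with JQ1 or BKM120 in that fit (adjusted p = 0.202 and 0.929). The fit without 18DS replicate 2 kept the count filter, and *SOCS1* passed it only through the 18DS libraries with 12 and 14 counts. Its call there (edgeR adjusted p = 0.000391) is therefore no separate support.

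*SOCS2* (ENSG00000120833), which restrains growth hormone signalling in mice, stood at 4.78, 4.03 and 3.15 CPM in 18DS, at 4.63, 3.81 and 4.26 CPM in JQ1, at 6.10, 6.92 and 6.27 CPM in BKM120 and at 6.46, 4.98 and 4.98 CPM in DMSO. All 18DS and JQ1 libraries lay below all BKM120 and DMSO libraries. The log2 fold changes relative to DMSO were -0.45 ± 0.25 with 18DS, -0.37 ± 0.248 with JQ1 and 0.23 ± 0.234 with BKM120, and none passed the test (SE; edgeR adjusted p = 0.203, 0.469 and 0.609). *SOCS3* (ENSG00000184557), whose product binds gp130 itself and is the classical STAT3 target of this pathway, averaged 3.67 ± 1.22 CPM in 18DS, 2.49 ± 0.765 in JQ1, 2.73 ± 0.740 in BKM120 and 3.22 ± 1.09 in DMSO (SD, n = 3 each). All 4 groups overlapped. Its log2 fold changes were 0.20 ± 0.333 with 18DS, -0.35 ± 0.354 with JQ1 and -0.24 ± 0.351 with BKM120 (SE; edgeR adjusted p = 0.726, 0.676 and 0.732).

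Counted together, the members changed in no common direction. With 18DS 1 of the 8 tested members rose and 2 fell, where 21.0% of all tested genes passed in either direction, 9.95% of them upwards and 11.0% downwards. With JQ1 0 rose and 1 fell, where 6.08% of all genes passed (2.63% upwards, 3.45% downwards). With BKM120 1 rose and 2 fell, where 8.21% of all genes passed (4.07% upwards, 4.14% downwards). The libraries of the groups did not overlap for 5 members with 18DS, 3 with JQ1 and 4 with BKM120, where 35.3%, 25.3% and 28.2% of all genes were of that kind. The median log2 fold change of the 8 members was -0.04 with 18DS, -0.28 with JQ1 and 0.05 with BKM120, beside medians over all genes between -0.0034 and 0.003. These counts include only members that passed the filter, and *SOCS1*, which failed it, was higher in every 18DS and JQ1 library than in every DMSO library.

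**Figure D2:**
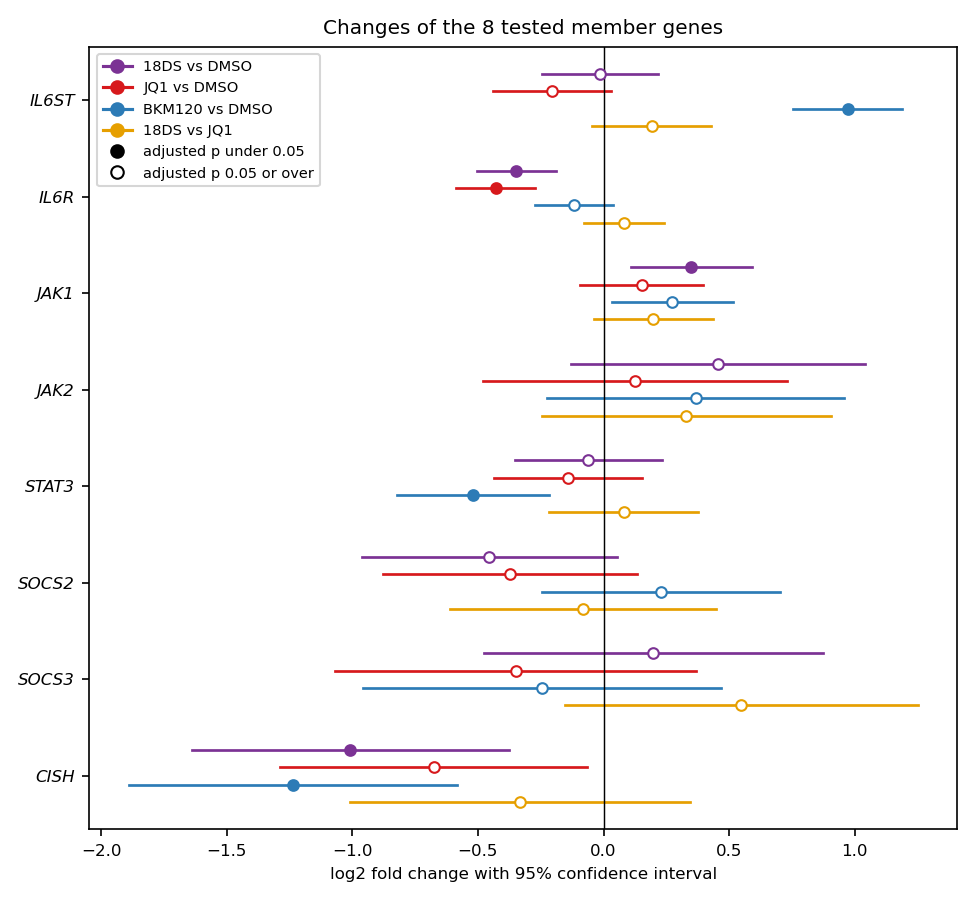
Log2 fold changes (horizontal axis) of the 8 tested genes with 95% confidence intervals for 18DS, JQ1 and BKM120 against DMSO and for 18DS against JQ1, where filled points have an edgeR adjusted p under 0.05. *IL6ST* with BKM120 (0.97) is the farthest to the right, and the widest intervals are those of *SOCS3*, *CISH* and *JAK2*.

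At the matched dose of 250 nM, 18DS and JQ1 differed in none of the 8 tested members by edgeR's adjusted p (0 of 8, where 4.17% of all genes passed, 2.37% higher and 1.79% lower with 18DS). There were also 0 members with an unadjusted p under 0.05 in edgeR, and 0 called by limma-voom. DESeq2 called 0 as well, but it gave no adjusted p for *JAK2*, *SOCS2*, *SOCS3* and *CISH* here. Its 0 therefore covers *IL6ST*, *IL6R*, *JAK1* and *STAT3* alone. The differences of 18DS from JQ1 on the log2 scale were 0.19 for *IL6ST* (95% interval -0.0444 to 0.428), 0.08 for *IL6R* (-0.077 to 0.241), 0.20 for *JAK1* (-0.0389 to 0.435) and 0.08 for *STAT3* (-0.216 to 0.376). The intervals of the low-count members were wider, at -0.247 to 0.907 for *JAK2*, -0.612 to 0.447 for *SOCS2*, -0.155 to 1.25 for *SOCS3* and -1.01 to 0.346 for *CISH*. The libraries of 18DS and JQ1 did not overlap for *IL6ST* and *JAK1*, 2 of the 8, where 24.0% of all genes were of that kind. The untested *SOCS1* had 32 counts in 18DS and 11 in JQ1, a depth-scaled ratio of 2.9 (95% counting interval 1.42 to 6.37; exact two-sided permutation p = 0.1, the smallest possible). BKM120 was given at another dose, so no test was made between it and 18DS or JQ1.

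Of 90 other genes of the pathway, 89 were matched and 64 tested. Their lists were chosen with earlier results of these data known, so shares of called genes are given as description only. With 18DS 8 rose and 9 fell (26.6%, against 21.0% of all genes), with JQ1 3 rose and 6 fell (14.1%, against 6.08%), and with BKM120 7 rose and 2 fell (14.1%, against 8.21%). Between 18DS and JQ1 4 were higher with 18DS and 0 lower (6.25%, against 4.17%). *IL6* itself had 1 count in all 12 libraries together. Of the 10 ligands of the IL6 family 1 was tested, *OSM*, which encodes oncostatin M and, like the other genes outside the fixed naming rule (*IL15RA*, *IL4R*, *IFNAR1*, *BCL3*, *IRF1*, *IRF9*, *BCL6*), was named after its values were seen. *OSM* had 2, 0 and 3 counts in 18DS, 7, 2 and 6 in JQ1, 17, 10 and 15 in BKM120 and 19, 13 and 29 in DMSO. The 18DS and JQ1 libraries lay below all DMSO libraries. *OSM* fell by 3.53 ± 0.607 with 18DS and by 2.01 ± 0.492 with JQ1 in log2 units (SE; edgeR adjusted p = 4.98e-05 and 0.00806). The call with JQ1 was lost without DMSO replicate 3 (-1.62, adjusted p = 0.114), JQ1 replicate 2 (-1.72, adjusted p = 0.0701) or JQ1 replicate 3 (-1.99, adjusted p = 0.0545).

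Of 14 tested chains of other cytokine receptors, 3 rose and 3 fell with 18DS, 1 rose and 3 fell with JQ1, and 1 rose and 1 fell with BKM120. These are 42.9%, 28.6% and 14.3% of the list, beside 21.0%, 6.08% and 8.21% of all tested genes in the same comparisons. The list was made with earlier results of these data known, so these shares are no test of it. *IL10RA*, the ligand-binding chain of the IL10 receptor, stood at 35.3, 34.1 and 32.9 CPM in 18DS, at 24.7, 25.0 and 25.7 CPM in JQ1, at 34.8, 33.9 and 34.2 CPM in BKM120 and at 21.1, 20.7 and 15.4 CPM in DMSO. All 18DS and BKM120 libraries were above all JQ1 libraries, which were above all DMSO libraries. It rose by 0.83 ± 0.122 with 18DS and by 0.84 ± 0.122 with BKM120 in log2 units (SE; edgeR adjusted p = 3.85e-06 and 1.32e-05), and the 0.39 ± 0.126 with JQ1 missed the threshold (adjusted p = 0.0554). *IL10RB*, its partner chain, rose by 0.93 ± 0.213 with 18DS and by 0.77 ± 0.216 with JQ1 (SE; edgeR adjusted p = 0.00237 and 0.0304). The call for JQ1 was lost without any 1 of the 6 JQ1 and DMSO libraries (adjusted p = 0.062 to 0.12). *IFNAR2*, a chain of the type I interferon receptor, stood at 117.6, 122.9 and 123.1 CPM in 18DS, 136.7, 126.2 and 144.1 CPM in JQ1, 206.4, 174.6 and 192.2 CPM in BKM120 and 190.0, 204.5 and 197.2 CPM in DMSO. It fell by 0.70 ± 0.08 with 18DS and by 0.54 ± 0.0796 with JQ1 (SE; edgeR adjusted p = 3.29e-08 and 1.02e-05). Its exons overlap those of *IL10RB-DT* on the opposite strand, which had 10382 counts against 12230 and log2 fold changes of -0.84 and -0.62 with 18DS and JQ1. The exons of *IFNAR2* and of *IL10RB* also overlap those of *AP000295.1* on the same strand. That gene had 133 counts, against 979 for *IL10RB*, and log2 fold changes of -1.09 and -1.08 with 18DS and JQ1. *IL15RA*, the receptor chain that presents IL15, fell by 2.11 ± 0.377 with 18DS and by 2.30 ± 0.388 with JQ1 (SE; edgeR adjusted p = 8.38e-05 and 8.9e-05). Its exons overlap those of *AL137186.2* on the same strand, which had 4324 counts against 183.

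*IL11RA*, a receptor that signals through gp130, rose by 1.135 ± 0.279 in log2 units with 18DS (SE; edgeR adjusted p = 0.00304). It stood at 5.62, 6.65 and 11.02 CPM in 18DS, against 3.67, 3.05 and 3.82 CPM in DMSO, and 18DS replicate 3 was the high library. Without that library it was 0.80 (adjusted p = 0.0655). Its exons overlap those of *CCL27* on the opposite strand, which had 164 counts against 403 and a log2 fold change of 1.35 with 18DS. They also overlap those of *GALT* on the same strand, which had 820 counts and a log2 fold change of 0.38 with 18DS. *IFNAR1*, the partner of *IFNAR2*, fell by 0.40 ± 0.114 with 18DS and by 0.47 ± 0.115 with JQ1 (SE; edgeR adjusted p = 0.0103 and 0.00772). The call with 18DS was lost without DMSO replicate 1 (-0.33, adjusted p = 0.0792), and that with JQ1 without DMSO replicate 1 (-0.42, adjusted p = 0.0552), JQ1 replicate 1 (-0.42, adjusted p = 0.0588) or JQ1 replicate 3 (-0.43, adjusted p = 0.0629). *IL4R*, a receptor chain for IL4 and IL13, stood at 13.0, 12.7 and 13.6 CPM in BKM120, against 19.8, 17.8 and 19.3 CPM in DMSO. It fell by 0.54 ± 0.148 with BKM120 (SE; edgeR adjusted p = 0.0189), which was lost without BKM120 replicate 1 (-0.54, adjusted p = 0.0655), DMSO replicate 1 (-0.50, adjusted p = 0.0915) or DMSO replicate 3 (-0.53, adjusted p = 0.0518).

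Of the other JAK and STAT genes 6 were tested, and *STAT2*, which carries interferon signals, was the 1 that passed. It rose by 0.50 ± 0.152 in log2 units with 18DS (SE; edgeR adjusted p = 0.0171), which was lost without 18DS replicate 3 (0.46, adjusted p = 0.0671) or DMSO replicate 3 (0.35, adjusted p = 0.136). The 0.47 ± 0.153 with BKM120 sat at the threshold (edgeR adjusted p = 0.0485), and neither DESeq2 nor limma-voom called it (adjusted p = 0.0696 and 0.0516). The 3 other tested SOCS genes passed in no comparison by edgeR or limma-voom, and with 18DS 1 of the 3 had an unadjusted p under 0.05 in edgeR. DESeq2 called none of them, but in some comparisons it gave genes of few counts no adjusted p. Of 17 other negative regulators of JAK and STAT, 1 rose and 1 fell with 18DS (11.8%, below the 21.0% of all genes), 0 changed with JQ1, and 1 rose with BKM120 (5.88%, below 8.21%). Beside the 0 with JQ1, 3 of the 17 had an unadjusted p under 0.05 in edgeR, and DESeq2 and limma-voom called 0. *ELOB*, an adaptor that links SOCS proteins to a ubiquitin ligase, rose by 0.31 ± 0.0763 and *CUL5*, the scaffold of that ligase, fell by 0.45 ± 0.116 (SE; edgeR adjusted p = 0.00321 and 0.00488). The exons of *ELOB* overlap those of *SRRM2* on the opposite strand, which had 15358 counts against 14125 and a log2 fold change of -0.16 with 18DS. With BKM120 *ELOB* rose by 0.25 ± 0.0765 (SE; edgeR adjusted p = 0.0375), which was lost without BKM120 replicate 1 or 3, DMSO replicate 1 or 2, or JQ1 replicate 2 (0.19 to 0.27, adjusted p = 0.0503 to 0.223). Of 7 shedding and adaptor genes of the receptor, *GAB1*, a docking protein that joins gp130 to PI3K and MAPK signalling, stood at 16.9, 15.01 and 21.3 CPM in BKM120, against 11.01, 9.79 and 8.97 CPM in DMSO. *GAB1* rose with BKM120 by 0.82 ± 0.175 (SE; edgeR adjusted p = 0.00203), and its log2 fold changes were -0.32 with 18DS and -0.36 with JQ1 (adjusted p = 0.252 and 0.331). *SOS1*, a Ras activator downstream of such adaptors, fell by 0.46 ± 0.142 with 18DS (SE; edgeR adjusted p = 0.0176), which was lost without 18DS replicate 2 (-0.30, adjusted p = 0.153), DMSO replicate 1 (-0.43, adjusted p = 0.0641) or DMSO replicate 2 (-0.38, adjusted p = 0.0968).

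**Figure D3:**
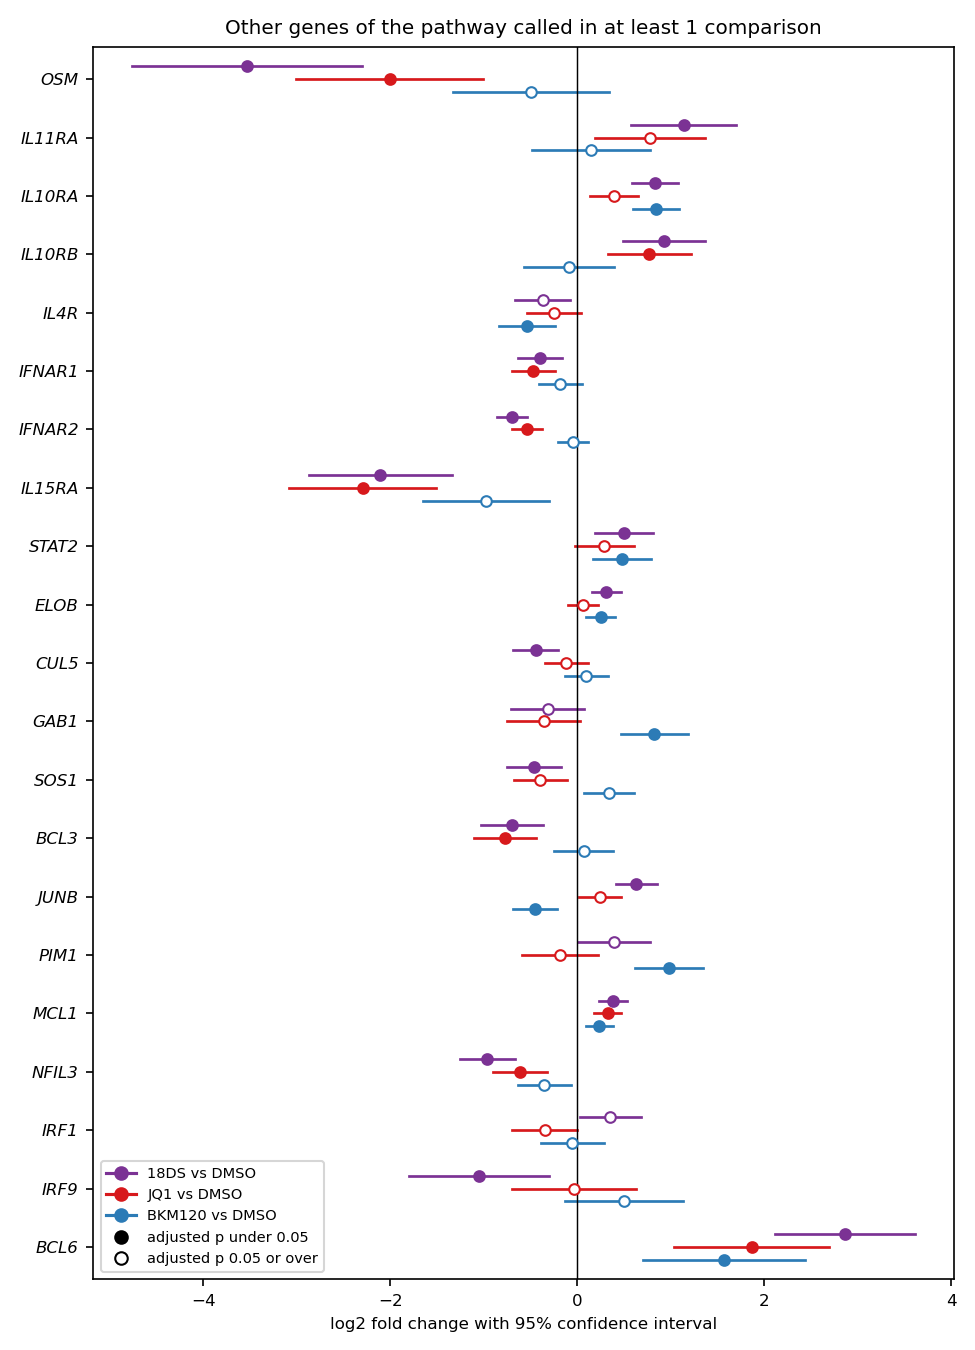
Log2 fold changes (horizontal axis) with 95% confidence intervals of the other pathway genes that passed in at least 1 comparison, for 18DS, JQ1 and BKM120 against DMSO, where filled points have an edgeR adjusted p under 0.05. *OSM* (-3.53 with 18DS) and *BCL6* (2.86 with 18DS) are at the ends, and *GAB1* and *PIM1* on the higher side and *IL4R* on the lower have a filled point for BKM120 alone.

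Of 16 tested genes known as STAT3 targets, 3 rose and 3 fell with 18DS, 2 rose and 2 fell with JQ1, and 3 rose and 1 fell with BKM120. These are 37.5%, 25.0% and 25.0% of the list, beside 21.0%, 6.08% and 8.21% of all tested genes. This list too was made with earlier results of these data known, so its shares do not test STAT3 targets as a set. *BCL6*, a transcriptional repressor of B cells, stood at 5.48, 7.701 and 6.77 CPM in 18DS, at 3.94, 2.72 and 3.23 CPM in JQ1, at 1.28, 3.38 and 3.40 CPM in BKM120 and at 0.73, 0.96 and 1.00 CPM in DMSO. Every library of the 3 compounds was above every DMSO library. It rose by 2.86 ± 0.369 with 18DS and by 1.86 ± 0.409 with JQ1 in log2 units (SE; edgeR adjusted p = 3.84e-07 and 0.00279). The rise of 1.57 ± 0.425 with BKM120 (SE; edgeR adjusted p = 0.0169) was lost without BKM120 replicate 2 (1.34, adjusted p = 0.0691), BKM120 replicate 3 (1.39, adjusted p = 0.0995) or DMSO replicate 1 (1.44, adjusted p = 0.089). *MCL1*, a survival protein of myeloma cells, stood at 426.8, 436.2 and 421.9 CPM in 18DS and at 433.6, 400.2 and 402.6 CPM in JQ1, and at 398.7, 372.5 and 389.6 CPM in BKM120, against 359.7, 317.9 and 309.6 CPM in DMSO. It rose by 0.38 ± 0.0722 with 18DS and by 0.32 ± 0.0722 with JQ1 (SE; edgeR adjusted p = 0.000185 and 0.00318). It also rose by 0.23 ± 0.0722 with BKM120 (SE; edgeR adjusted p = 0.0387), which was lost without BKM120 replicate 1 or 3, DMSO replicate 2 or 3, 18DS replicate 3, or JQ1 replicate 2 or 3 (0.19 to 0.23, adjusted p = 0.0515 to 0.164). *PIM1*, a survival kinase, stood at 21.5, 23.99 and 18.1 CPM in BKM120, against 11.4, 9.47 and 11.5 CPM in DMSO, a rise of 0.98 ± 0.18 (SE; edgeR adjusted p = 0.000518). *JUNB*, an AP-1 factor, stood at 67.2, 64.1 and 65.5 CPM in 18DS, at 34.7, 27.8 and 30.4 CPM in BKM120 and at 37.3, 44.5 and 45.7 CPM in DMSO. It rose by 0.63 ± 0.109 with 18DS and fell by 0.45 ± 0.117 with BKM120 (SE; edgeR adjusted p = 5.35e-05 and 0.0111). The call with BKM120 was lost without BKM120 replicate 2 (-0.38, adjusted p = 0.0507), DMSO replicate 2 (-0.42, adjusted p = 0.0543) or DMSO replicate 3 (-0.40, adjusted p = 0.0611).

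*NFIL3*, a bZIP repressor, stood at 26.1, 16.4 and 15.4 CPM in 18DS and at 26.9, 24.7 and 23.2 CPM in JQ1, against 41.5, 37.1 and 35.5 CPM in DMSO. It fell by 0.96 ± 0.145 with 18DS and by 0.62 ± 0.141 with JQ1 in log2 units (SE; edgeR adjusted p = 1.05e-05 and 0.00503), and without JQ1 replicate 3 the change with JQ1 was -0.56 (adjusted p = 0.0509). *BCL3*, a nuclear IkB protein, fell by 0.70 ± 0.163 with 18DS and by 0.78 ± 0.164 with JQ1 (SE; edgeR adjusted p = 0.00225 and 0.00242).

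The pathway genes that were higher with 18DS than with JQ1 were *IL10RA* (0.44 ± 0.118), *JUNB* (0.39 ± 0.107), *IRF1* (0.70 ± 0.167) and *BCL6* (1.00 ± 0.293), as log2 differences ± SE (edgeR adjusted p = 0.0276, 0.0313, 0.0139 and 0.0446). *IRF1*, an interferon-induced transcription factor, stood at 15.6, 19.1 and 16.5 CPM in 18DS, against 11.5, 11.2 and 8.91 CPM in JQ1. Each call was lost without certain libraries. That of *IL10RA* was lost without 18DS replicate 2 or 3 or any JQ1 library (0.43 to 0.47, adjusted p = 0.0594 to 0.1), and that of *JUNB* without 18DS replicate 3 or JQ1 replicate 1 or 2 (0.32 to 0.40, adjusted p = 0.0841 to 0.178). That of *IRF1* was lost without 18DS replicate 2 or JQ1 replicate 3 (0.63 and 0.59, adjusted p = 0.0606 and 0.115). That of *BCL6* was lost without 18DS replicate 2 or 3, any JQ1 library, or DMSO replicate 2 or 3 (0.89 to 1.15, adjusted p = 0.0501 to 0.169). The *BCL6* call was also lost with limma-voom (adjusted p = 0.0519), and in edgeR with library totals alone (0.0507) or without the robust option (0.0544). The *JUNB* call was also lost in edgeR with library totals alone (adjusted p = 0.054).

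Without 18DS replicate 2, 15 of the 17 other pathway genes called with 18DS against DMSO remained called, and *SOS1* and *IRF9* did not. *IRF9*, a partner of STAT2, fell by 1.05 ± 0.368 on the log2 scale with all libraries and was at -0.80 without that one (SE; edgeR adjusted p = 0.0375 and 0.162). It was also lost without 18DS replicate 3 (-0.92, adjusted p = 0.123), DMSO replicate 1 (-0.82, adjusted p = 0.201) or DMSO replicate 3 (-1.07, adjusted p = 0.0671). The exons of *IRF9* overlap those of *AL136295.5* on the same strand, which had 575 counts against 237. Among the receptor genes, the log2 fold changes without 18DS replicate 2 were 0.83 for *IL10RA*, 0.65 for *IL10RB*, 1.23 for *IL11RA*, -0.71 for *IFNAR2*, -0.39 for *IFNAR1* and -1.97 for *IL15RA*, beside -3.04 for the ligand *OSM*. They were 0.52 for *STAT2*, 0.27 for *ELOB* and -0.49 for *CUL5*. Among the STAT3 targets they were 2.75 for *BCL6*, 0.37 for *MCL1*, 0.65 for *JUNB*, -0.86 for *NFIL3* and -0.65 for *BCL3*.

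The genes whose levels followed the best-counted members most closely over the 12 libraries were found by the root mean square difference of log2(CPM + 0.5), each gene centred on its DMSO mean, among 9851 genes. For *IL6ST* the nearest were *RICTOR*, a subunit of mTORC2, and *MXI1*, a MAX-binding repressor, at 0.166 and 0.177, where the median gene was at 0.553. Group means of *RICTOR* relative to DMSO were 0.17 in 18DS, -0.07 in JQ1 and 0.81 in BKM120, and those of *MXI1* were -0.15, -0.18 and 0.73 in the same order. For *IL6R* the nearest were *UCK2*, a uridine-cytidine kinase, and *HNRNPDL*, an RNA-binding protein, both at 0.0878, where the median gene was at 0.352. *UCK2* was at -0.38 in 18DS, -0.35 in JQ1 and -0.03 in BKM120. For *JAK1* the nearest named gene was *HUWE1*, a ubiquitin ligase, at 0.0782, and for *STAT3* it was *PMEPA1*, a TGF-beta pathway inhibitor, at 0.125. These likenesses are a description over libraries that share treatment and depth.

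**Figure D4:**
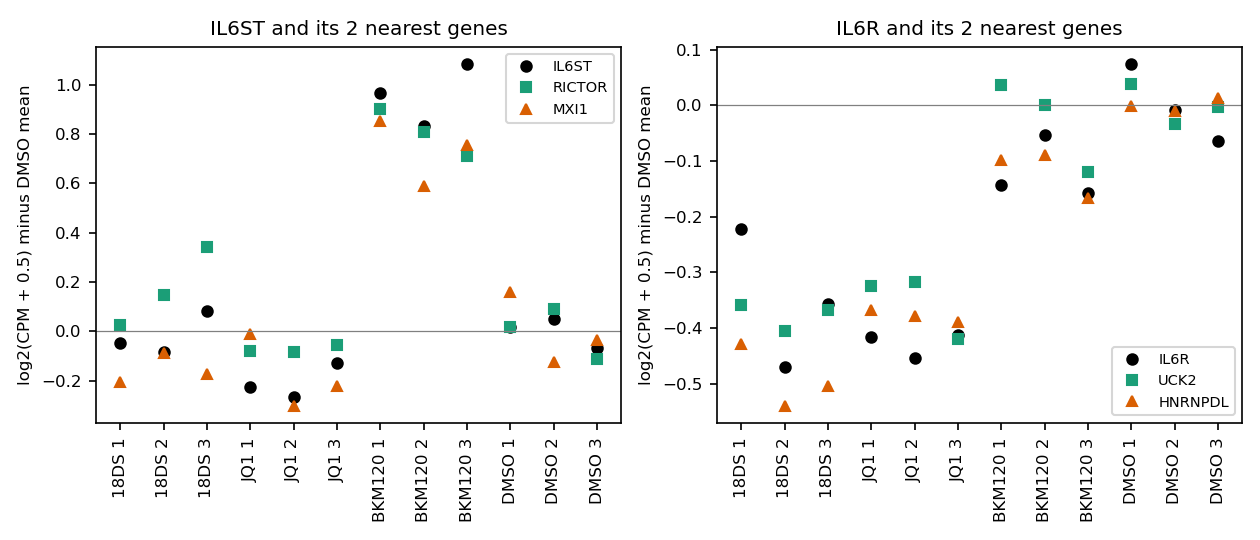
Log2(CPM + 0.5) minus the DMSO mean (vertical axes) in each library (horizontal axes) for *IL6ST* with *RICTOR* and *MXI1*, and for *IL6R* with *UCK2* and *HNRNPDL*. The BKM120 libraries are the high ones on the left, and the 18DS and JQ1 libraries the low ones on the right.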

How the data were processed

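RNA of 12 OPM2 libraries was sequenced as 3′ mRNA (QuantSeq, 75-base single-end reads from 500 ng RNA, per the labels' protocols). The deposited values are raw counts per gene, made by the authors with tools that the submitters' processing notes list without their roles: HISAT2 2.1.0, featureCounts, Subread, bcl2fastq 2.17.1.14, cutadapt 1.7, SAMtools 1.9, FastQC 0.11.5 and limma, with the build hg19. For the annotation release, strand setting and multimapping reads no statement was found in the sources used. Symbols came from GENCODE v29 and matched 51662 of 63152 identifiers.

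Counts were fitted with edgeR 4.0.16 (R 4.3.3; TMM scaling, robust quasi-likelihood) in 1 model of the 4 groups, over 13180 genes kept by filterByExpr (minimum count 10, minimum total 15), and p-values were adjusted by Benjamini-Hochberg over those genes at a threshold of 0.05. The median SE of a log2 fold change was 0.17, and TMM factors were 0.971 to 1.03. DESeq2 1.42.0 and limma-voom 3.58.1 were alternatives. Figures used matplotlib 3.10.9. The code was tested on simulated data. Chi-square tests found replicates to differ beyond sampling noise (1.92 to 8.83 per degree of freedom), so none was a repeat deposit. Exon overlaps were read from GENCODE v29 and promoter windows from RefSeq.

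The members and the gene lists were chosen with earlier results of these data known. Among the other pathway genes, the naming rule took up to 4 per list, those called in at least 1 comparison with a mean of at least 5 CPM, by smallest adjusted p. For each called member of at least 5 CPM it took the 2 genes nearest over the libraries.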

Additional observations from a re-analysis of the deposited data

How the results depend on the processing

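The calls of *IL6ST* with BKM120 and of *IL6R* with 18DS and JQ1 kept their direction and side of the threshold in all 10 alternatives and all 12 fits without 1 library; those of *JAK1*, *STAT3* and *CISH* did not. *JAK1* with 18DS was also lost with library totals alone (adjusted p = 0.0906), with no filter (0.0892) and with its own 2 groups (0.0569). Outside the members, *MCL1* and *ELOB* with BKM120 were lost with library totals alone (edgeR adjusted p = 0.0775 and 0.0681) and no filter (0.0783 and 0.0897). *IRF9* with 18DS was lost with DESeq2 (adjusted p = 0.0647), no filter (0.0603) and its own 2 groups (0.0705). *BCL6* with BKM120 was lost with limma-voom (adjusted p = 0.0715), and *IL10RB* with JQ1 with a replicate block (0.0506). Leaving out 1 library, members called ranged from 1 to 4 with 18DS, 1 to 1 with JQ1, 1 to 3 with BKM120 and 0 to 0 for 18DS against JQ1, and genes called from 1909 to 3026, 504 to 1021, 487 to 1565 and 105 to 1027. The 4 called without 18DS replicate 2 were *IL6R*, *JAK1*, *CISH* and *SOCS1*. *SOCS1* passed the count filter there through its 18DS libraries, so the range for 18DS is not over the 8 tested members alone. The uncalled log2 fold change of *IL6ST* with 18DS changed sign with upper-quartile scaling (0.034). Leaving out 1 library also turned the sign of uncalled changes: *IL6ST* with 18DS (-0.064 to 0.022), *JAK2* with JQ1 (-0.049 to 0.33), *STAT3* with 18DS (-0.17 to 0.13), with JQ1 (-0.24 to 0.039) and for 18DS against JQ1 (-0.025 to 0.19), *SOCS2* for 18DS against JQ1 (-0.23 to 0.068), and *SOCS3* with 18DS (-0.032 to 0.47) and BKM120 (-0.47 to 0.022). The causes were not tested. Higher and lower calls were 1312 and 1456 with 18DS, 346 and 455 with JQ1, 536 and 546 with BKM120, and 313 and 236 for 18DS against JQ1. With library totals alone they were 898 and 2025, 304 and 555, 439 and 815, and 208 and 414, and with upper-quartile scaling 1675 and 1213, 413 and 379, 734 and 431, and 372 and 207. Same-numbered libraries of different groups did not deviate together (r = -0.128 to 0.0919 over 18 pairs, and 3 libraries correlated best with their own number). With the replicate block 2667 genes were called with 18DS, 743 with JQ1, 1043 with BKM120 and 522 for 18DS against JQ1, with 3, 1, 3 and 0 members. Depth limits *SOCS1*, *SOCS2*, *SOCS3*, *JAK2* and *CISH*, which had few counts.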
